A study of Mus musculus with 16 samples.

Results

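Integrins are the receptors through which cells hold on to the extracellular matrix, and the focal adhesion core is the set of cytoplasmic proteins that join their tails to actin. The members described here are the 36 mouse genes that code for integrin alpha subunits (*Itga1* to *Itga11*, *Itga2b*, *Itgad*, *Itgae*, *Itgal*, *Itgam*, *Itgav*, *Itgax*), beta subunits (*Itgb1* to *Itgb8*), the integrin beta-like protein *Itgbl1*, and the core proteins *Tln1*, *Tln2*, *Vcl*, *Ptk2*, *Pxn*, *Ilk*, *Fermt1*, *Fermt2*, and *Fermt3*. They were chosen by gene symbol. Of the 36, the table of single cells listed 34 among its 29629 genes (*Itgad* and *Itgax* were not listed, and that table lists only genes with at least 1 UMI), and the table of Achilles tendon listed all 36 among 47729.

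The cells came from a single clone of ScxGFP iPSCs, which carry a GFP reporter driven by *Scx* regulatory sequence. Mesodermal cells without TGF-β2 (T0) were compared with cells after 3 days (T3), 6 days (T6), and 9 days (T9) in 10 ng/ml TGF-β2, with 3 plates of 384 wells for each time point. None of the samples used here is a culture without TGF-β2 beyond T0, so that TGF-β2 and time in culture cannot be told apart. Cells were freed with enzymes and sorted singly as live cells, without a gate on GFP. The tendons came from mice aged 2 weeks, 2 samples from wild-type littermates (Scx_Wt) and 2 from homozygous *Scx* knockouts (Scx_KO); the labels do not say whether a sample is 1 animal.

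An integrin is a pair of 1 alpha and 1 beta subunit, and the pair decides the ligand. The alpha subunits αv, α5, α8, and αIIb (*Itga2b*) read the RGD motif of fibronectin, vitronectin, and latent TGF-β, while α1, α2, α10, and α11 bind collagens, and α3, α6, and α7 bind laminins. α4 and α9 bind VCAM-1, tenascin-C, and alternatively spliced fibronectin, and most of these alpha subunits pair with β1. Talin and kindlin (Fermt genes) bind the beta tail and switch the receptor on, vinculin strengthens the link to actin, and focal adhesion kinase (*Ptk2*), paxillin, and integrin-linked kinase carry signals from the site. In tendon, a tissue built of fibrillar collagen under load, α11β1 is known as a collagen receptor of fibroblasts.

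The plates held between 1921125 and 4657093 UMIs (unique molecular identifiers, 1 for each captured mRNA molecule) in the 4594 of 4608 wells with at least 200 detected genes, and the tendon samples between 11188270 and 12398560 reads. Levels are given in CPM, the counts of a gene per 1000000 counts of the plate or sample, and fold changes are those of edgeR after TMM scaling. A gene was called when its p, adjusted by Benjamini-Hochberg over all genes tested, was under 0.05. The plates fall on 2 sides by the share of reads that were not assigned to a gene in the mapping summary of the study: all T0 plates, T3-2, T6-1, T6-3, and T9-3 have the larger share, and T3-1, T3-3, T6-2, T9-1, and T9-2 the smaller. Each of the 384 well barcodes was used in all 12 plates by design. The labels do not say whether plates of a time point came from separate cultures, so that p-values measure the spread between plates. In the cells, the summed level of 10 tenocyte markers was 800.1 to 807 CPM at T0 and 16700.5 to 44017 CPM at T9, and in tendon it was 155378 to 168710 CPM in Scx_Wt and 75195 to 86516 CPM in Scx_KO. *Scx* itself was at 103 and 81.3 CPM in the Scx_Wt and 23.1 and 25.1 CPM in the Scx_KO samples.

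Between T0 and T3, members moved in both directions. Of the 34 members listed, 22 passed the filter on low counts. Of these 22, 5 rose and 6 fell between T0 and T3, beside 17.0% and 16.2% (33.2% in either direction) of all 13372 genes tested. Those that rose were *Itga1*, *Itga2b*, *Itga8*, *Itga9*, and *Itgb8*, and those that fell were *Itga3*, *Itga4*, *Itga6*, *Itga11*, *Itgav*, and *Pxn*. The median log2 fold change of the 22 was -0.07, against 0.01 over all genes. Between T3 and T6, *Itgb3*, *Itgbl1*, and *Pxn* rose and no member fell (2.61% and 1.63%, together 4.24%, of all genes; with DESeq2, 4 rose and none fell), and 9 of the 22 had an unadjusted p under 0.05. Between T6 and T9 *Itgbl1* alone rose and no member fell (0.935% and 0.688%, together 1.62%, of all genes; with DESeq2 also 1 and none), and 5 of the 22 had an unadjusted p under 0.05. Comparisons of T3 and of T9 with T0 share the T0 plates, so that they are not independent of each other. From T0 to T9, 9 members rose and *Itga6* fell, beside 23.6% and 21.6% (45.2% in either direction) of all genes. Smooth muscle markers rose over the same time: 5 of the 6 tested were called higher at T9 than at T0, with a median log2 fold change of 2.58, and their summed level was 288 to 610.5 CPM at T0 and 2317 to 3508 CPM at T9. Their part in the changes of *Itga1*, *Itga8*, and *Itga9* was not tested.

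**Figure D1:**
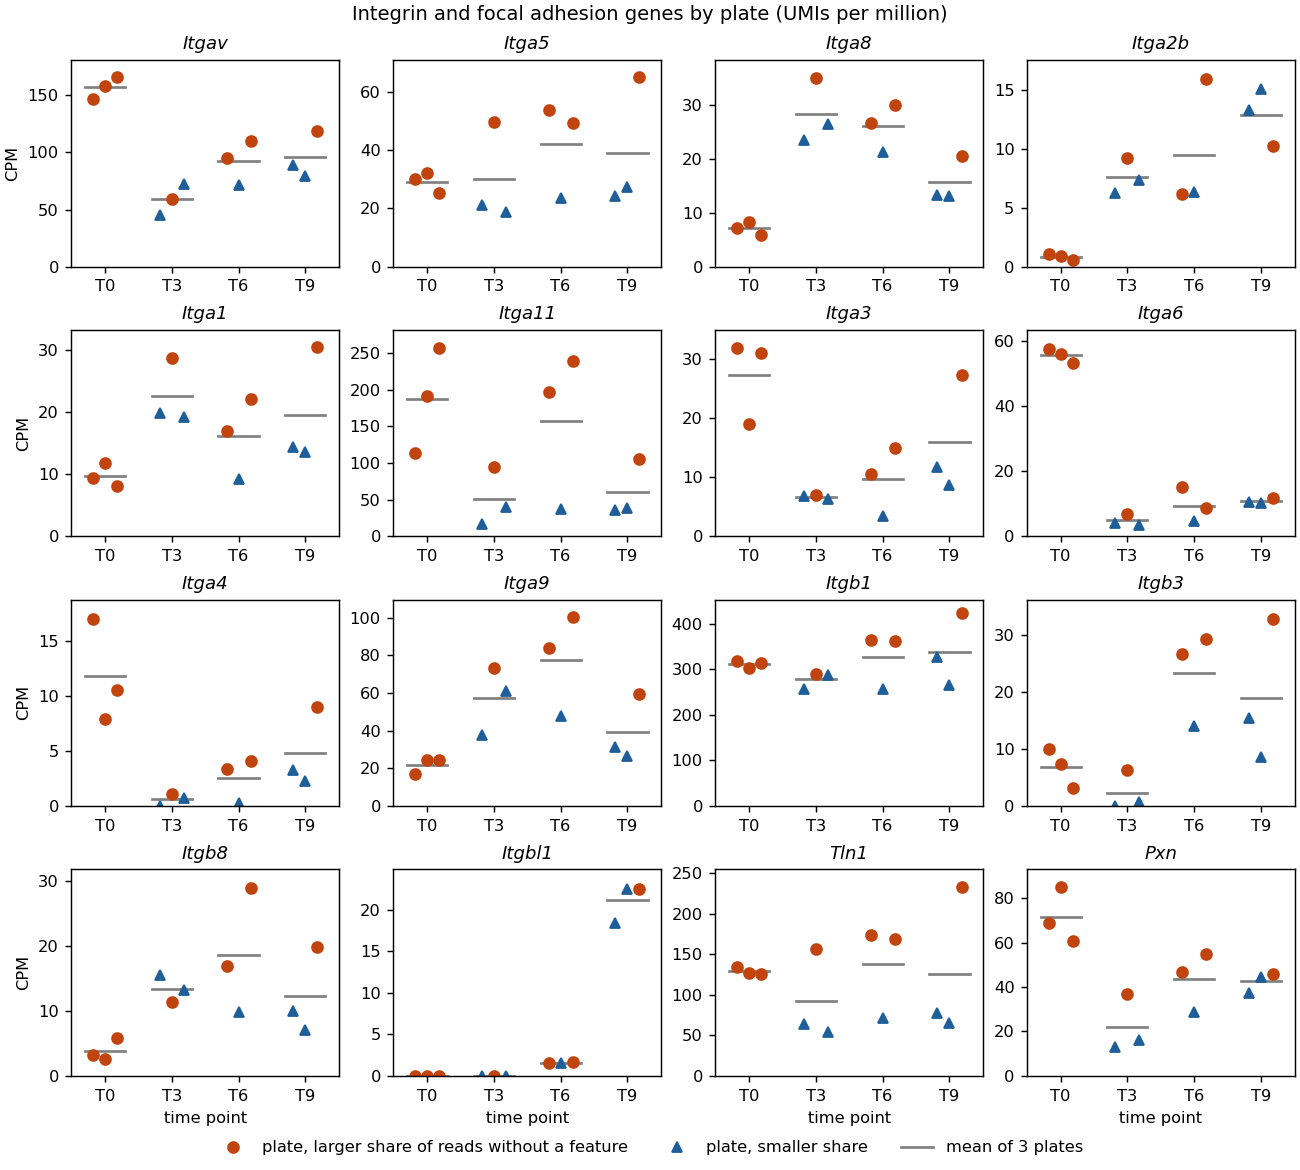
Level (CPM, linear axis) of 16 members on each of the 12 plates, by time point, with circles for plates with the larger share of reads without a feature, triangles for those with the smaller share, and a grey line for the mean of 3 plates. *Itga6* lies between 53.3 and 57.8 CPM at T0 and at 15.1 CPM or below on every later plate, *Itgbl1* has UMIs at T6 and T9 only, and the triangles of *Itga11* and *Tln1* lie below the circles of the same time point.

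The laminin-binding chains α6 and α3 were among those that fell. *Itga6*, the α6 chain of epithelial and stem cell laminin receptors, was at 57.8, 56.0, and 53.3 CPM on the T0 plates and at 4.16, 7.001, and 3.48 CPM on the T3 plates. It stayed low at T6 (15.1, 4.77, and 8.56 CPM) and T9 (10.6, 10.3, and 11.9 CPM), and no later plate overlapped T0. The log2 fold change was -3.29 ± 0.30 (SE, adjusted p = 2.44e-06, edgeR) at T3 and -1.85 ± 0.26 (adjusted p = 6.93e-05, edgeR) at T9 against T0. At T0, 23.0% ± 2.91 (SD, n = 3 plates) of the cells held an *Itga6* UMI, and at T3 1.39% ± 0.798. After thinning each cell to 3000 UMIs, which removes differences in depth and leaves out shallower cells, these shares were 10.3% ± 0.713 and 0.554% ± 0.727.

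*Itga3*, whose α3 chain also binds laminin, was at 31.8, 19.0, and 30.9 CPM at T0 and at 6.77, 7.001, and 6.27 CPM at T3. It fell by 1.80 ± 0.41 on the log2 scale (SE, adjusted p = 0.00398, edgeR), with no overlap between the plates. At T9 its levels of 11.7, 8.67, and 27.2 CPM overlapped those of T0, and it was not called. *Itga7*, the laminin receptor chain of muscle, had at most 1.63 CPM on any plate. Markers of other cells were lower at T3 as well, with all 4 epithelial markers tested and 1 of 6 pluripotent markers tested called lower, and their part in the changes of *Itga6* and *Itga3* in all wells was not tested. The summed level of 4 epithelial markers (of 6; the other two were not listed) was 274 to 395 CPM at T0 and 18.2 to 46.4 CPM at T3, and that of 8 pluripotent markers 371 to 780.3 CPM and 105 to 156 CPM. In the 4162 wells with under 3 UMIs of these 12 genes, a limit set after seeing the data, *Itga6* fell by 3.79 on the log2 scale (adjusted p = 5.65e-06, edgeR) from T0 to T3, while the change of *Itga3* was -0.77 (adjusted p = 0.207), no longer called.

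*Itga4* and *Itga9*, which code for the related α4 and α9 chains, moved in opposite directions. *Itga4* was at 17.0, 7.87, and 10.5 CPM at T0 and at 0, 1.11, and 0.697 CPM at T3, where the 3 plates held 5 of its UMIs in all. It fell by 3.89 ± 0.76 on the log2 scale (SE, adjusted p = 0.00149, edgeR). At T6 its levels were 3.33, 0.318, and 4.04 CPM and at T9 3.26, 2.25, and 8.95 CPM, and T9 against T0 was not called (log2 fold change -0.87 ± 0.56, adjusted p = 0.218).

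*Itga9* was at 17.2, 24.5, and 24.2 CPM at T0 and rose to 37.5, 73.3, and 61.0 CPM at T3, by 1.59 ± 0.26 on the log2 scale (SE, adjusted p = 0.000361, edgeR). At T6 its plates held 84.0, 48.0, and 100.1 CPM, and at T9 31.2, 26.7, and 59.4 CPM. Every later plate was above every T0 plate, and T9 against T0 gave 1.26 ± 0.26 (adjusted p = 0.0012). With total counts in place of TMM, the T9 change was 0.83 (adjusted p = 0.0792) and was no longer called.

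Among the RGD-binding chains, *Itgav* fell and *Itga8* and *Itga2b* rose. *Itgav* codes for αv, the chain that several TGF-β-activating integrins share, and was at 147, 158, and 166 CPM at T0. It fell to 44.8, 59.3, and 72.5 CPM at T3, by 1.18 ± 0.19 on the log2 scale (SE, adjusted p = 0.000295, edgeR). At T6 (95.2, 71.9, and 110.4 CPM) and T9 (88.8, 79.3, and 119 CPM) its levels were still below those of every T0 plate, although T9 against T0 was not called after TMM scaling (log2 fold change -0.24 ± 0.18, adjusted p = 0.289). With total counts in its place the same difference was -0.72 (adjusted p = 0.0189) and was called.

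*Itga8*, whose α8 chain pairs with β1 and binds nephronectin, was at 7.09, 8.34, and 5.92 CPM at T0 and 23.4, 35.0, and 26.5 CPM at T3. It rose by 2.199 ± 0.205 on the log2 scale (SE, adjusted p = 2.86e-06, edgeR). The T6 plates held 26.6, 21.3, and 30.0 CPM and the T9 plates 13.3, 13.2, and 20.6 CPM, all above T0, with a T9 against T0 change of 1.60 ± 0.21 (adjusted p = 3.11e-05). *Itga5*, the α5 chain of the fibronectin receptor, showed no such separation over all plates, and after T0 it followed the side of the plate. On plates with the larger share it was at 25.3 to 32.2 CPM at T0 and 49.7 CPM at T3 (n = 1). There it was at 49.5 to 53.7 CPM at T6 and 65.3 CPM at T9 (n = 1). On plates with the smaller share, none of them at T0, it was at 18.8 to 27.3 CPM. It was at 30.3, 32.2, and 25.3 CPM at T0 and at 24.2, 27.3, and 65.3 CPM at T9, so that the plates overlapped, and its call at T9 (0.82 ± 0.31, adjusted p = 0.0421, edgeR) was lost with total counts (0.41, adjusted p = 0.475), and also without T9 replicate 3 (0.46, adjusted p = 0.220), without any single T0 plate, and with DESeq2.

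*Itga2b*, which codes for the αIIb chain known from platelets and their precursors, was at 1.07, 0.926, and 0.538 CPM on the T0 plates, 11 UMIs in all. It rose to 6.25, 9.21, and 7.32 CPM at T3, and stood at 6.14, 6.36, and 15.9 CPM at T6 and 13.3, 15.1, and 10.3 CPM at T9. The log2 fold change was 3.30 ± 0.50 (SE, adjusted p = 0.000225, edgeR) at T3 and 4.37 ± 0.48 (adjusted p = 6.84e-06) at T9 against T0. The groups did not overlap, and both changes were called under each of the 16 alternatives run for each, with a log2 fold change between 3.10 and 3.48 at T3 and between 3.69 and 4.63 at T9. At T9, 6.80% ± 1.22 (SD, n = 3 plates) of the cells held an *Itga2b* UMI, and 0.784% ± 0.260 at T0 (2.69% and 0.277% after thinning to 3000 UMIs). Other platelet markers were close to 0: *Pf4*, *Ppbp*, and *Gp1bb*, the 3 of the other 4 on the list that the table held, summed to at most 0.859 CPM on any plate, *Pf4* had no UMI at T3, T6, or T9, and the summed level of 11 leukocyte markers was at most 13.4 CPM.

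The collagen receptors also split. *Itga1*, whose α1 chain favours collagen IV, was at 9.45, 11.8, and 8.07 CPM at T0 and at 19.8, 28.7, and 19.2 CPM at T3. It rose by 1.41 ± 0.28 on the log2 scale (SE, adjusted p = 0.00165, edgeR) and by 1.42 ± 0.28 (adjusted p = 0.00091) at T9, where the plates held 14.4, 13.5, and 30.5 CPM. T6, with 16.9, 9.23, and 22.1 CPM, overlapped T0. With total counts the T9 change was 0.98 (adjusted p = 0.0533). *Itga2* and *Itga10* had at most 2.98 CPM on any plate.

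*Itga11*, the α11 chain that binds fibrillar collagen, varied widely between plates of a time point. It was at 114, 191, and 256 CPM at T0 and 17.2, 94.3, and 40.1 CPM at T3, then 197, 36.6, and 239 CPM at T6 and 35.3, 39.2, and 105 CPM at T9. The fall at T3 was 1.74 ± 0.55 on the log2 scale (SE, adjusted p = 0.0268, edgeR). Among plates with the larger share of reads without a feature, T0 had a mean of 187 CPM (n = 3), T3 94.3 CPM (n = 1), T6 218 CPM (n = 2), and T9 105 CPM (n = 1). Among those with the smaller share, T3 had 28.6 CPM (n = 2), T6 36.6 CPM (n = 1), and T9 37.2 CPM (n = 2), and T0 had no plate. The T3 plate with the larger share was below every other plate of that side. With the smaller share, the T3 plates (17.2 and 40.1 CPM) overlapped those of T6 and T9 (35.3 to 39.2 CPM), although their mean was the lowest. The call was lost with total counts (-1.87, adjusted p = 0.0617) and without T0 replicate 2 (-1.71, adjusted p = 0.0654), T0 replicate 3 (-1.42, adjusted p = 0.105), T3 replicate 1 (-1.40, adjusted p = 0.0985), or T3 replicate 3 (-1.66, adjusted p = 0.0903). T9 against T0 was not called (log2 fold change -1.25 ± 0.54, adjusted p = 0.0729), and became a call without T9 replicate 3 (-1.69, adjusted p = 0.0309).

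**Figure D2:**
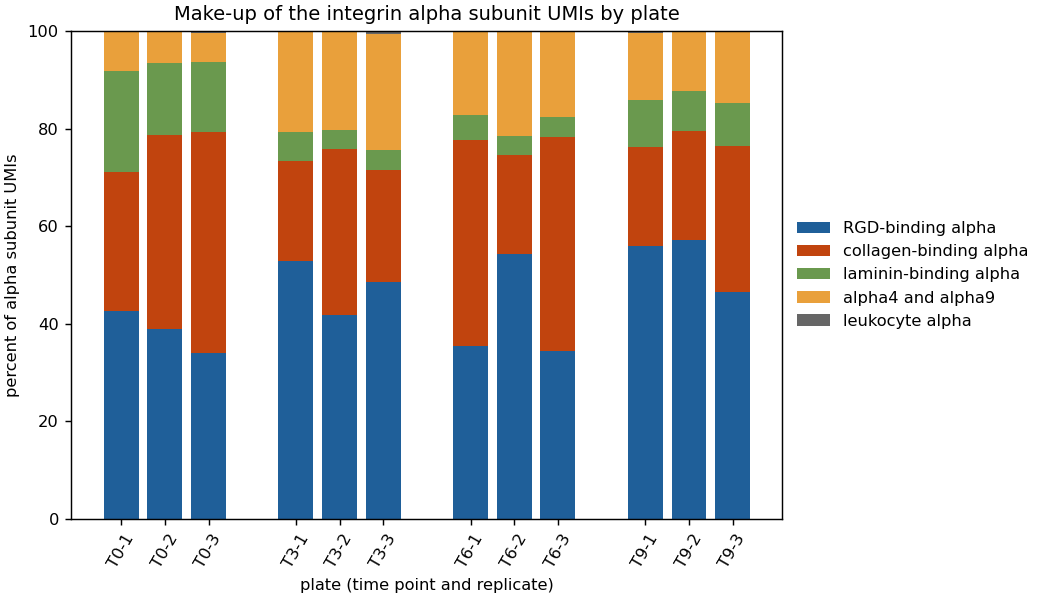
Share of the UMIs of all listed integrin alpha subunits (percent, linear axis) that fell to each ligand class, for each of the 12 plates. The laminin-binding share is 16.7% on average at T0 and 4.62% at T3, and the share of α4 and α9 is 6.70% at T0 and 21.6% at T3. The total behind the shares was 2031 to 2213 UMIs a plate at T0 and 348 to 996 at T3.

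Added up by ligand class, the make-up of the alpha subunit UMIs changed with time. CEL-Seq2 counts each mRNA once from its 3' end, so that these shares need no correction for length, although capture can differ between genes. The laminin-binding share was 16.7% ± 3.55 (SD, n = 3 plates) at T0 and 4.62% ± 1.22 at T3, then 4.39% ± 0.623 at T6 and 8.83% ± 0.717 at T9. The share of α4 and α9 was 6.70% ± 0.998 at T0 and 21.6% ± 1.99 at T3, then 18.6% ± 2.38 at T6 and 13.6% ± 1.26 at T9. In both classes the shares of the T0 and T3 plates did not overlap. The α4 and α9 class joins *Itga9*, which rose at T3, and *Itga4*, which fell. This class held 159, 140, and 129 UMIs on the T0 plates and 72, 202, and 177 on the T3 plates. The alpha total went from 2031, 2213, and 2172 UMIs to 348, 996, and 740, a larger fall than that of all UMIs on these plates. The rise of this share is therefore in part that of a smaller total, and exceeds the rise in the level of the class. The collagen-binding share was 37.9% ± 8.59 at T0 and 25.8% ± 7.22 at T3, then 35.5% ± 13.2 at T6 and 24.3% ± 5.17 at T9, with plates of T0 that overlapped those of every later time point. This share followed the side of the plate. It was 28.6% to 45.4% on plates with the larger share of unassigned reads and 20.2% to 23.1% on the others. The RGD-binding share was 38.5% ± 4.37 at T0 and 47.7% ± 5.60 at T3, then 41.4% ± 11.2 at T6 and 53.2% ± 5.88 at T9. It followed the side of the plate, with 33.9% to 46.4% on the plates with the larger share of unassigned reads and 48.5% to 57.1% on the others, which include no plate of T0. The leukocyte chains *Itgae*, *Itgal*, and *Itgam* took at most 0.234% on average at any time point. The plots of single members and of these shares use the same counts, so that the shares are a summary of the values above and not a further measurement.

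Among the beta subunits *Itgb1*, the β1 chain that most alpha subunits pair with, was the highest on every plate and took 72.1% to 78.8% of the beta UMIs on average. It was at 318, 303, and 313 CPM at T0 and 256, 290.3, and 287 CPM at T3, then 363, 257, and 361 CPM at T6 and 326, 265, and 422 CPM at T9. In the fit it rose by 0.59 ± 0.16 on the log2 scale (SE, adjusted p = 0.00793, edgeR) from T0 to T9, but with total counts the difference was 0.12 ± 0.19 (adjusted p = 0.631), and T0 and T9 overlapped. The T9 plate with the larger share of unassigned reads, the side of all T0 plates, held 422 CPM. Those with the smaller share held 326 and 265 CPM. *Itgb5*, a partner of αv, was at 74.0 to 88.5 CPM at T0 and 56.2 to 109 CPM at T9 and was not called in any time comparison.

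*Itgb3* and *Itgb8*, both partners of αv, rose while *Itgav* itself did not. *Itgb3* was at 10.1, 7.41, and 3.23 CPM at T0 and 0, 6.26, and 0.697 CPM at T3, then 26.6, 14.0, and 29.3 CPM at T6 and 15.5, 8.67, and 32.8 CPM at T9. All T6 plates were above all T0 and T3 plates, with a T6 against T3 change of 3.28 ± 0.65 on the log2 scale (SE, adjusted p = 0.0105, edgeR). With total counts that change was 3.23 (adjusted p = 0.0636), and without T3 replicate 3 it was 2.84 (adjusted p = 0.0564). At T9 the change from T0 was 1.86 ± 0.54 (adjusted p = 0.0122), lost with total counts (1.43, adjusted p = 0.106) and without T0 replicate 3 (1.55, adjusted p = 0.0585), and the plates overlapped.

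*Itgb8*, whose αvβ8 receptor binds latent TGF-β, was at 3.22, 2.55, and 5.92 CPM at T0 and 15.6, 11.4, and 13.2 CPM at T3. It rose by 2.03 ± 0.43 on the log2 scale (SE, adjusted p = 0.0028, edgeR) and by 2.10 ± 0.43 (adjusted p = 0.00119) at T9, where the levels were 10.0, 7.07, and 19.9 CPM. T6 held 16.9, 9.86, and 29.0 CPM, and no later plate overlapped T0. Both calls held under every alternative run. *Itgb4*, the β4 partner of α6, was at 1.59 to 9.95 CPM over all plates and was not called. *Itgb2*, *Itgb6*, and *Itgb7* had at most 1.72 CPM on any plate.

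*Itgbl1* codes for a secreted protein with the EGF-like repeats of a beta subunit but without its membrane part, and lies at chr14:123659971-123975618 (GRCm38, plus strand). It had no UMI on the 3 T0 plates or the 3 T3 plates. At T6 it was at 1.54, 1.59, and 1.67 CPM (18 UMIs in all) and at T9 at 18.5, 22.5, and 22.6 CPM (206 UMIs). Against a floor of 3 counts over the 3 plates of a time point, T9 was at least 88.8-fold higher than T0 (adjusted p = 1.42e-06, edgeR) and T6 at least 4.00-fold higher than T3 (adjusted p = 0.0167). From T6 to T9 it rose by 3.96 ± 0.39 on the log2 scale (SE, adjusted p = 0.00189, edgeR), and this call held under each of the 17 alternatives run. The T6 against T3 call held under 13 of the 16 alternatives run. It was lost, among others, without T3 replicate 3 (adjusted p = 0.0515, edgeR). At T9, 8.98% ± 0.784 of the cells (SD, n = 3 plates) held its UMIs, or 5.60% after thinning to 3000 UMIs. *Tnmd*+ cells, which make the membrane protein tenomodulin of mature tenocytes, were not called different: *Itgbl1* was at 14.4 ± 10.9 CPM (SD, n = 3 plates) in T9 cells with a *Tnmd* UMI and 21.7 ± 4.80 CPM in those without (log2 difference -0.37 ± 0.46, adjusted p = 0.903, edgeR).

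The reference holds a promoter window for 25 of the 36 members (28 windows, taken from RefSeq, GRCm38.p6), each of 300 bases. Most of each window lies before the start of transcription given by RefSeq, which can differ from the start of the annotated gene. The window of *Itgbl1*, at chr14:123659890-123660189 on the plus strand, is shown because the gene goes from no UMI at T0 to a call at T9. Capitals mark E-boxes, the letters CANNTG bound by basic helix-loop-helix proteins such as *Scx*.
Itgbl1: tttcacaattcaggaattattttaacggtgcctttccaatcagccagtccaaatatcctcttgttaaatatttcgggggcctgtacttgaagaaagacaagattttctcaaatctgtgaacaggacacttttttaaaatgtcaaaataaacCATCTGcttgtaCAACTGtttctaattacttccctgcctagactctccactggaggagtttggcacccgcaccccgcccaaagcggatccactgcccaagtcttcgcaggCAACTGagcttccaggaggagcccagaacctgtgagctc
It holds 3 E-boxes and no CAGAC (searched on both strands), a short motif known to be bound by SMAD proteins. The RefSeq start lies 169 bases inside the annotated gene, and all 3 E-boxes lie inside that gene. An E-box was found in 72.3% of all 32851 windows and in 21 of the 28 member windows, and a CAGAC in 49.6% and in 14 of the 28 member windows. A match is only a match of letters.

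Of the focal adhesion core, *Pxn* was the only member that changed in the fit. Paxillin, which it codes for, is the adaptor on which focal adhesion kinase and vinculin gather. It was at 68.9, 84.99, and 60.8 CPM at T0 and 13.01, 36.8, and 16.0 CPM at T3, a fall of 1.51 ± 0.26 on the log2 scale (SE, adjusted p = 0.000632, edgeR) without overlap. At T6 its plates held 46.6, 29.0, and 54.9 CPM and at T9 37.2, 44.6, and 45.8 CPM, again below every T0 plate. T9 against T0 was not called, either after TMM scaling or with total counts (log2 fold change -0.75, adjusted p = 0.0844, edgeR). The T6 against T3 rise of 1.02 ± 0.27 (adjusted p = 0.0444) was lost under 8 of the 17 alternatives run, among them total counts (0.97, adjusted p = 0.190), and without T3 replicate 1, T3 replicate 3, T6 replicate 1, or T6 replicate 3 (adjusted p = 0.168, 0.179, 0.130, and 0.200).

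*Tln1* and *Tln2*, the talins, followed the side of the plate, and were not alone in this. At T3, T6, and T9 alike, *Itga1*, *Itga5*, *Itga8*, *Itga9*, *Itgb1*, *Itgb3*, *Itgb5*, and *Fermt2*, among others, were higher on plates with the larger share. T0 has no plate with the smaller share, so that an overlap of T0 with a later time point can compare unlike sides. *Tln1* was at 134, 127, and 125 CPM at T0 and 64.0, 157, and 54.4 CPM at T3, then 174, 71.3, and 169 CPM at T6 and 77.1, 65.5, and 233 CPM at T9. Within the plates with the larger share of unassigned reads, T9 (233 CPM, n = 1) was above T0 (129 CPM on average, n = 3), while all plates with the smaller share lay between 54.4 and 77.1 CPM. *Tln2* was at 29.6 to 35.9 CPM at T0 and 21.3 to 60.4 CPM at T3, then 31.2 to 96.1 CPM at T6 and 11.95 to 60.7 CPM at T9. Neither talin was called.

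The other core genes were not called after TMM scaling. *Fermt2*, the kindlin of fibroblasts, was at 101 to 114 CPM at T0 and 105 to 141 CPM at T3, then 84.95 to 137 CPM at T6 and 79.0 to 131 CPM at T9. *Ptk2*, focal adhesion kinase, was at 74.1 to 80.7 CPM at T0 and 31.5 to 61.7 CPM at T9, without overlap, and was called lower only with total counts in place of TMM (log2 fold change -0.77, adjusted p = 0.0164, against -0.31 with TMM, adjusted p = 0.154). *Vcl*, vinculin, was at 7.71 to 31.2 CPM over all plates, and shares 25.5% of its exon bases with *Ap3m1* on the opposite strand. *Fermt1* and *Fermt3*, the kindlins of epithelia and blood cells, had at most 1.39 CPM on any plate.

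*Ilk*, integrin-linked kinase, had 6 UMIs over all plates and at most 1.39 CPM. Its exons share 76.7% of their bases with *Taf10* and 12.9% with *Rrp8*, both on the opposite strand, and its tendon level was also near 0 (0.626 to 1.22 CPM), so that its value is uncertain in both tables.

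**Figure D3:**
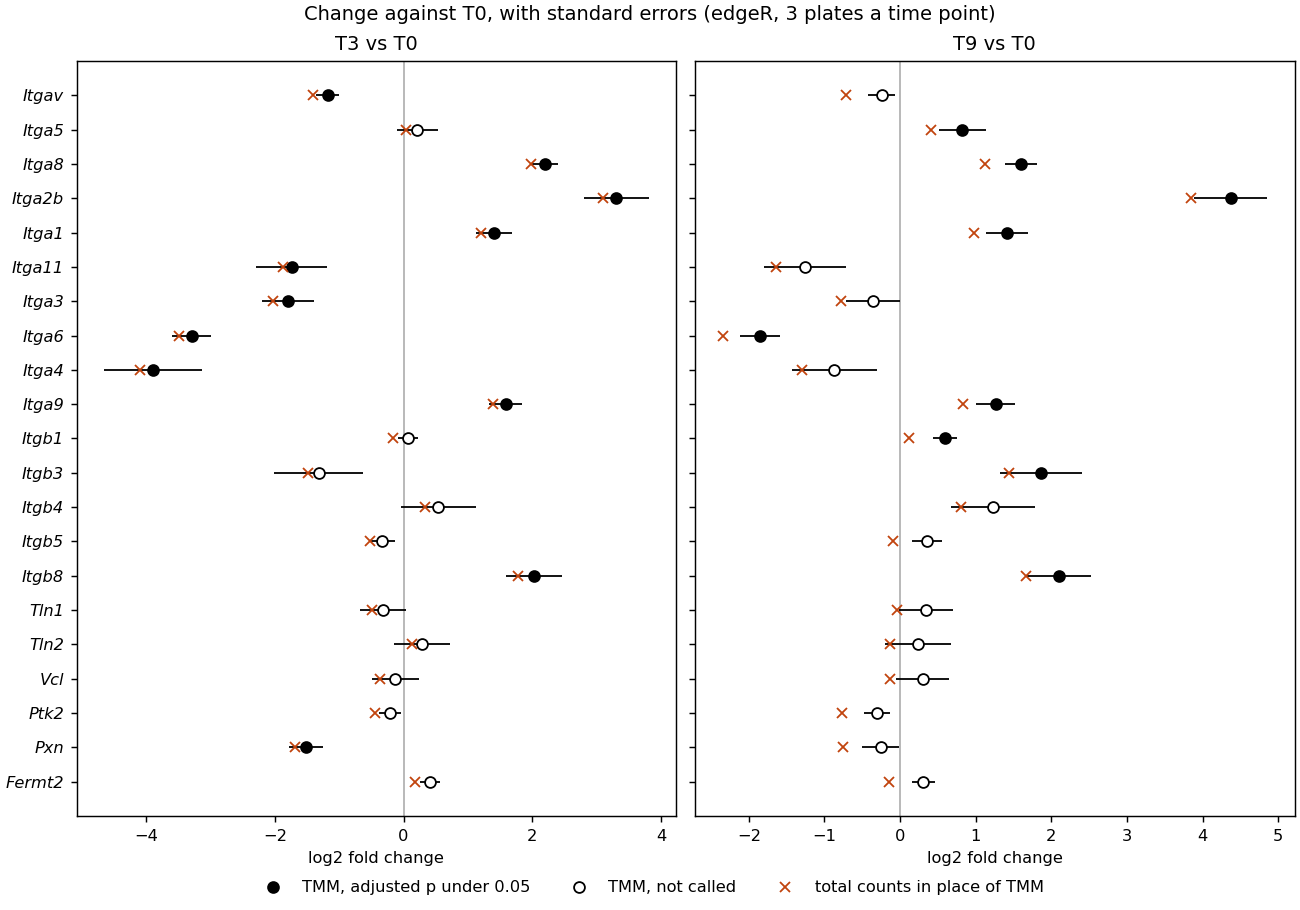
Log2 fold change (linear axis) of 21 members at T3 and at T9 against T0, as circles with standard errors after TMM scaling (filled where adjusted p was under 0.05) and crosses for total counts in place of TMM. Crosses lie to the left of the circles in both panels, and the cross of *Itgb1* at T9 is at 0.12 where its circle is at 0.59.

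Scaling bears on how many members are said to have risen. TMM sets the middle of all genes near 0, while total counts left the median gene at -0.49 at T9 against T0 and at -0.21 at T3 against T0. With total counts, T9 against T0 gave 4 members higher (*Itga2b*, *Itga8*, *Itgb8*, *Itgbl1*) and 3 lower (*Itga6*, *Itgav*, *Ptk2*), in place of 9 and 1. Over all genes, that scaling gave 13.1% higher and 33.4% lower. The 4 that rose and the fall of *Itga6* were called under both scalings. The signs of *Tln1*, *Tln2*, *Vcl*, *Fermt2*, and *Itgb5*, which were called under neither, differed between the scalings at T9.

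Of 39 adhesome partners, 33 were tested, of which 5 rose and 14 fell at T3 (median log2 fold change -0.48, against 0.01 over all genes), where 17.0% of all genes rose and 16.2% fell. At T9, 6 of the 33 rose and 6 fell (median -0.09), where 23.6% of all genes rose and 21.6% fell. *Parvb*, coding for β-parvin that binds integrin-linked kinase, was at 46.5 ± 4.16 CPM (SD, n = 3) at T0 and 5.28 ± 3.51 CPM at T9. *Csrp1* and *Nexn*, which code for actin-associated proteins, rose from 12.6 ± 1.57 to 37.5 ± 9.93 CPM and from 26.5 ± 7.35 to 65.8 ± 34.1 CPM, and *Enah*, an actin regulator, fell from 355 ± 27.8 to 85.2 ± 15.0 CPM. Of 18 membrane proteins that associate with integrins, 17 were tested, of which 12 rose and 1 fell at T9 (median 1.32), beside the same 23.6% and 21.6% of all genes. *Cav1*, the main protein of caveolae, was at 0.644 ± 0.194 CPM at T0 and 75.2 ± 1.72 CPM at T9, and the tetraspanin gene *Cd81* at 227 ± 21.4 and 795 ± 35.2 CPM.

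All 10 collagen genes on the list rose at T9 (median log2 fold change 4.98, against -0.02 over all genes), 10 of 14 genes of the RGD and fibronectin type rose and none fell (median 2.31), and of 7 laminin genes 5 rose and 1 fell (median 1.75), beside 23.6% and 21.6% of all genes. *Col1a2*, a chain of type I collagen, went from 186 ± 2.74 to 11504 ± 5895 CPM (SD, n = 3), and *Col6a1*, a chain of type VI collagen, from 5.06 ± 1.29 to 1571 ± 579 CPM. *Postn*, coding for the αv ligand periostin, went from 3.99 ± 1.47 to 1497 ± 422 CPM, and *Tnc*, coding for the α9 ligand tenascin-C, from 15.5 ± 6.94 to 301 ± 158 CPM. Of the 3 cell-surface ligands tested, *Vcam1* and *Icam1* rose and *Cdh1* fell. These lists were chosen with earlier results of these data in view, and the collagen genes *Col1a1* and *Col1a2* are also on the tenocyte list.

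At T3, cells with at least 1 *Scx* UMI (290, 322, and 321 cells) were compared with those without (94, 61, and 63 cells) plate by plate. No member of 15 tested was called, beside 0.437% of 8918 genes (0.168% higher and 0.269% lower), and 1 of the 15 had an unadjusted p under 0.05 (edgeR, the only tool run). *Itgb1* differed by 0.05 ± 0.14 on the log2 scale (SE) and *Itga11* by 0.67 ± 0.32 (adjusted p = 0.653), with 53.9 ± 43.2 CPM in *Scx*+ and 32.4 ± 20.0 CPM in *Scx*- cells (SD, n = 3 plates). At T9, cells with a *Tnmd* UMI (74, 45, and 36 cells) were compared with those without (308, 336, and 348 cells), and no member of 21 tested was called, beside 1.19% of 10090 genes (0.852% higher and 0.337% lower), with 2 of the 21 at an unadjusted p under 0.05. *Ptk2* had the lowest p of them (log2 difference -0.74 ± 0.27, adjusted p = 0.355). Cells counted as positive held more UMIs in the median on every plate, and standard errors up to 0.72 leave room for differences that these cells could not show.

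In the Achilles tendon, *Itgb1* was the highest member in Scx_Wt per kilobase of exon (156 ± 7.2 CPM per kb, SD, n = 2), followed by *Itgbl1* (84.5 ± 0.33), *Fermt2* (32.7 ± 0.81), *Tln1* (27.6 ± 0.54), *Itga5* (26.9 ± 5.2), *Itgb5* (26.6 ± 5.4), and *Itga7* (21.8 ± 0.67). Neighbours from *Tln1* to *Itga7* in this order differed by less than the spread of the wider of each pair, and 2 samples a group cannot rank them. *Itga7*, *Itgb6*, and *Itga2*, all near 0 in the cells, were at 172 to 216, 18.9 to 30.3, and 9.84 to 21.5 CPM in tendon. Striated muscle markers were also present, 10 genes summing to 40805 to 67704 CPM in Scx_Wt and 87170 to 91009 CPM in Scx_KO. Of these 10, 1 (*Myh7*, myosin of slow fibres) was called lower in Scx_KO and 9 were not called (edgeR). *Fermt1* was listed at 0 in all 4 samples.

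**Figure D4:**
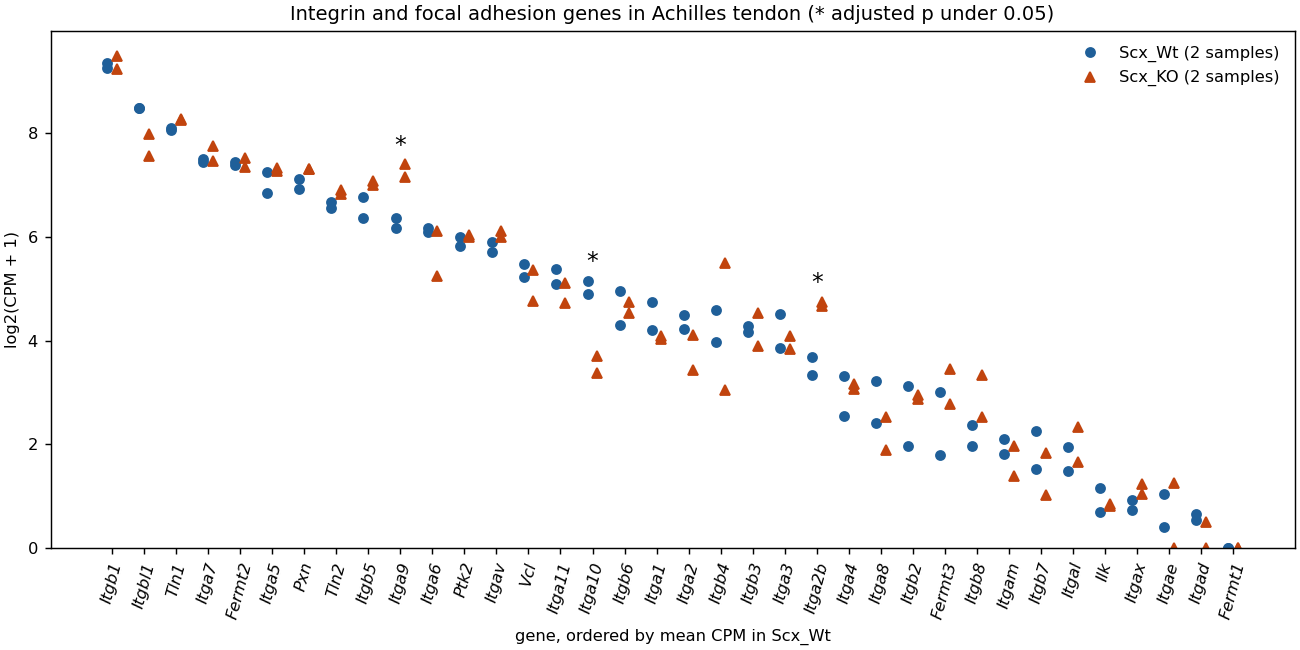
Level of the 36 members in each of the 4 Achilles tendon samples as log2(CPM + 1), ordered by the mean of Scx_Wt, with circles for Scx_Wt, triangles for Scx_KO, and an asterisk where the adjusted p was under 0.05. *Itga9* and *Itga2b* lie higher in both Scx_KO samples and *Itga10* lower, while the genotypes overlap or lie close for most others.

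Between the genotypes, 3 members differed. Of 33 tested, *Itga2b* and *Itga9* were higher and *Itga10* lower in Scx_KO, beside 1.77% and 2.07% (3.84% in either direction) of all 14602 genes tested, and the median log2 fold change of the 33 was 0.15, against -0.00 over all genes. In whole tendon, fewer cells of a type and less RNA per cell cannot be told apart. *Itga10*, the α10 chain of the collagen receptor known from cartilage, lies at chr3:96645584-96664519 (GRCm38, plus strand) and was at 34.3 and 29.0 CPM in Scx_Wt and 9.36 and 11.97 CPM in Scx_KO. The log2 fold change was -1.52 ± 0.23 (SE, adjusted p = 0.0061, edgeR), and it was called under every alternative run. Chondrocyte markers moved the same way: 7 genes summed to 1165 to 1315 CPM in Scx_Wt and 278 to 306 CPM in Scx_KO, *Col2a1*, the defining collagen of cartilage, was at 658 and 597 CPM against 23.4 and 12.3 CPM, and *Snorc* was at 0 in both. The part of these cells in the result was not tested. *Itga10* shares 33.5% of its exon bases with *Gm42957* on the same strand, which counting could split.

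*Itga9*, at chr9:118606690-118901003 (plus strand), was at 81.9 and 70.7 CPM in Scx_Wt and 143 and 168 CPM in Scx_KO, a log2 fold change of 1.07 ± 0.16 (SE, adjusted p = 0.00617, edgeR), also called under every alternative. *Itga2b*, at chr11:102453297-102470122 (minus strand), was at 11.8 and 9.06 CPM in Scx_Wt and 24.3 and 25.7 CPM in Scx_KO (1.31 ± 0.23, adjusted p = 0.0134), a call lost only without Scx_Wt replicate 2 (1.18, adjusted p = 0.0534). The other 4 platelet markers did not separate the genotypes: they summed to 25.4 to 51.8 CPM in Scx_Wt and 36.0 to 46.5 CPM in Scx_KO, with *Pf4* at 46.8 and 21.1 CPM against 32.0 and 38.7 CPM and *Gp9* at 0 in Scx_KO. The summed muscle markers, given above, were higher in both Scx_KO samples, although 9 of the 10 were not called, and their part in the differences of *Itga9* and *Itga2b* was not tested. Both genes also rose in the cells between T0 and T9.

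The windows of *Itga10* (chr3:96645334-96645633, plus strand) and *Itga2b* (chr11:102469834-102470133, minus strand) are shown because both genes differed between the genotypes and *Scx* is an E-box-binding factor, with E-boxes again in capitals. For *Itga2b* the RefSeq start lies 239 bases inside the annotated gene, so that most of its window does too. For *Itga9* that start lies 105002 bases inside the annotated gene, and its window is not shown.
Itga10: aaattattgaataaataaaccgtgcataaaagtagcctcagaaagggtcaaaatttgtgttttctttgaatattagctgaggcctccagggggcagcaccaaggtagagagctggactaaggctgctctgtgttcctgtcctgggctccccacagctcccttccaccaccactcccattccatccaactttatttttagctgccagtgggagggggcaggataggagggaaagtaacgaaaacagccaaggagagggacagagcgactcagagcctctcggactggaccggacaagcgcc
Itga2b: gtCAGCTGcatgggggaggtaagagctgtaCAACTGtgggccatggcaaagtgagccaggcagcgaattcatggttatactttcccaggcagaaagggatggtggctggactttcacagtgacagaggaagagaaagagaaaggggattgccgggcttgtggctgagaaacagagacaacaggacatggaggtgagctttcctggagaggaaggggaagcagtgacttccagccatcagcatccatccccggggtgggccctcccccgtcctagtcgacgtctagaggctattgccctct
*Itga10* has no E-box and *Itga2b* 2 in these windows, and neither holds a CAGAC. No match says only that these letters are not in this window.

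The remaining 30 members tested in tendon were not called. *Itgbl1* was at 356 and 358 CPM in Scx_Wt and 189 and 252 CPM in Scx_KO, lower in both, but its log2 fold change of -0.65 ± 0.19 missed the threshold (adjusted p = 0.111, edgeR). It was called with DESeq2 (adjusted p = 0.0192), with low-count genes kept in (0.0113), with the replicate number as a block, and without Scx_KO replicate 2 (-0.91, adjusted p = 0.0402). *Itga11* was at 40.8 and 33.4 CPM against 25.4 and 33.8 CPM (-0.27 ± 0.20, adjusted p = 0.543), and *Itgb1* at 656 and 615 CPM against 604 and 720.4 CPM. The core genes *Tln1* (267 to 311 CPM over the 4 samples), *Fermt2* (162 to 183 CPM), *Pxn* (121 to 158 CPM), *Ptk2* (55.8 to 64.4 CPM), and *Vcl* (26.1 to 43.8 CPM) were likewise not called.

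*Itga6* and *Itgb4* split the Scx_KO samples. *Itgb4* was at 23.1 and 14.8 CPM in Scx_Wt and 44.3 and 7.30 CPM in Scx_KO, and *Itga6* at 71.1 and 67.4 CPM and 67.9 and 37.1 CPM. The leukocyte chains *Itgal*, *Itgam*, *Itgax*, *Itgae*, and *Itgad* with *Itgb2*, *Itgb7*, and *Fermt3* had between 0 and 9.92 CPM, beside leukocyte markers of 185 to 303 CPM (12 genes summed, *Cd3e* at 0). Of these, *Itgam* shares 68.7% of its exon bases with *Gm49368* on the same strand.

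In tendon, 3.84% of all genes were called in either direction. Of 38 adhesome partners tested only *Enah* was called (higher, 134 ± 9.54 CPM in Scx_KO against 82.0 ± 17.8 CPM, SD, n = 2), and of 18 associated membrane proteins only *Sdc3*, coding for a syndecan (77.3 ± 1.35 against 245 ± 18.5 CPM, lower). Of the 10 collagens *Col3a1*, *Col5a1*, and *Col5a2* were higher and *Col11a1* lower. Among the 15 tested ligands of the RGD and fibronectin type, *Postn* (2611 ± 516 against 897 ± 328 CPM) and *Npnt*, coding for the α8 ligand nephronectin (93.1 ± 17.2 against 45.0 ± 7.96 CPM), were higher and *Thbs1* lower, and *Lama2*, the laminin chain of muscle and nerve, was the only laminin called (higher, 246 ± 1.66 against 133 ± 9.17 CPM).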

How the data were processed

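Genes were matched to symbols with GENCODE vM21 (GRCm38), which also gave positions and exon overlaps. For the cells, the authors aligned reads to GRCm38 (HISAT2 2.2.1), assigned them with featureCounts, collapsed UMIs (UMI-tools 1.0.1), and deposited whole-number counts per gene and well, without normalization. For the tendon, the authors deposited read counts per gene (HISAT2 2.0.4, featureCounts 1.5.0). The strand setting of counting is not given in the sources used here. Rows that name no Ensembl gene (3, 0.0642% of UMIs) were left out.

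Counts per plate (wells with at least 200 genes) were fitted with edgeR 4.0.16 in R 4.3.3 (filterByExpr, TMM, quasi-likelihood test), all 12 plates in a single fit; positive and negative cells were fitted with the plate as a block, and the 4 tendon samples by genotype. Standard errors are the log2 fold change divided by the square root of F. Alternatives were DESeq2 1.42.0, size factors, no filter, blocks by replicate number, a covariate for the side of the plates, the 6 plates of a comparison alone, at least 1000 genes, a minimum of 2 UMIs, thinning to 3000 UMIs, and leaving out each replicate. Total counts, each side of the plates alone, and wells with under 3 marker UMIs were added after seeing the data. Every called member is named, with full values for at most 12 a comparison. The members and the gene lists were chosen with earlier results of these data known. The barcode list served no comparison. The fits were tested on simulated data. Replicate plates and samples differed by more than sampling noise, and none was counted as a repeat of another.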

Additional observations from a re-analysis of the deposited data

How the results depend on the processing

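Of the 28 changes of single members called in the 7 comparisons, 17 kept their call and direction under each alternative run and 11 lost it under at least 1, and none reversed. The numbers of members called moved by more than 1.5 times as follows. From T0 to T3, members called higher went from 5 to 8 with the library split as a covariate. From T3 to T6, members called higher went from 3 to 5 without a filter on low counts, 7 with the library split, and 1 with the 6 plates alone, with the plates of the smaller share alone, or with total counts, and members called lower stayed at 0. From T6 to T9, members called higher went from 1 to 2 with the library split, and those called lower from 0 to 3 without a filter and 1 with the library split. From T0 to T9, members called higher went from 9 to 14 with the library split, 15 on the plates of the larger share alone, and 4 with total counts, and those called lower from 1 to 2 without a filter and with the 6 plates alone, and 3 with total counts. In tendon, members called lower went from 1 to 2 with DESeq2, without a filter, and with the replicate number as a block. Without T3 replicate 3, T6 against T3 had 1 member higher, and without T6 replicate 2 it had 5. Without T9 replicate 3, 2 members were lower at T9 than at T6 and 2 lower at T9 than at T0, and without Scx_Wt replicate 2 or Scx_KO replicate 2 the tendon had 1 or 3 higher. Leaving out 1 replicate in turn gave 5 higher and 5 to 7 lower for T3 against T0, 1 to 5 higher and 0 lower for T6 against T3, 1 higher and 0 to 2 lower for T9 against T6, 7 to 10 higher and 1 to 2 lower for T9 against T0, 1 to 3 higher and 1 to 2 lower in tendon, and 0 in both comparisons of cells. With the plates of a single side, some time points keep 1 plate (T3 and T9 on the larger side, T6 on the smaller), so that its spread is assumed to be that of the other time points. The cause of these moves was not tested.

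The replicate numbers showed no pairing of the plates. Correlations of deviations ran from -0.56 to 0.52 for plates with the same number and from -0.56 to 0.49 for those with different numbers. For the tendon they were 0.07 and -0.07. With 2 samples a genotype these must be equal with opposite signs, so that they cannot show whether the tendon samples are paired. With the replicate number as a block, 5 members were higher and 6 lower for T3 against T0, 3 higher for T6 against T3, 1 higher for T9 against T6, 8 higher and 1 lower for T9 against T0 (*Itga5* lost), and 3 higher and 2 lower in tendon (*Itgbl1* among the lower).

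At these depths 12 of the 34 listed members held too few UMIs to be tested in the cells, and 2 samples a genotype limit the tendon values. The floor of 3 counts covers counting error only, and the sides of the plates are not balanced over time, with none of the smaller share at T0.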
